A study of Mus musculus with 6 samples.

Results

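The NF-κB system of hematopoietic stem and progenitor cells was described through 10 genes of the 49315 in the count files. They comprised the 5 subunits (Nfkb1, Nfkb2, Rela, Relb and Rel), 4 inhibitors (Nfkbia, Nfkbib, Nfkbie and Tnfaip3) and the catalytic kinase subunit Ikbkb. The list names each gene for its place in the pathway and sets no condition on its measured values, and the members were found by matching gene identifiers to the GENCODE annotation of GRCm38.

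ING4 is a chromatin-associated tumor suppressor of the inhibitor of growth family and is known to restrain RELA. Bulk RNA-seq was carried out on 6 libraries, 1 for each of 3 bone marrow populations in each of 2 genotypes: ING4-deficient mice (ING4-/-, CD45.2) and wild-type C57BL/6 controls (WT, CD45.2). The study's methods give an age of 8 to 12 weeks for control mice. Marrow from 8 to 10 mice was pooled and lineage depleted, and 1000 to 10000 cells per population were sorted from lineage-negative Sca1+ cKit+ (LSK) cells: LT-HSCs (long-term stem cells, CD48- CD34- CD150+), ST-HSCs (short-term stem cells, CD48- CD34+ CD150+) and MPPs (multipotent progenitors, CD48- CD34+ CD150-). Since each population had 1 library per genotype, the 3 populations stood in for replicates, and the comparison of genotypes measured their spread and not that between mice. Values given in threes below follow the order LT-HSC, ST-HSC and MPP.

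NF-κB factors are dimers of the RELA, RELB and REL proteins with each other or with p50 and p52, which are made from the products of Nfkb1 and Nfkb2. In resting cells IκB proteins, the products of Nfkbia, Nfkbib and Nfkbie, keep many of these dimers out of action, and IκB kinase, with IKKβ from Ikbkb as a catalytic subunit, marks them for destruction after signals such as TNF or bacterial products. Nfkbia and Tnfaip3 are induced by NF-κB itself and dampen the response, and in the hematopoietic system the pathway is known for its part in inflammation, survival and stem cell maintenance.

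The WT and ING4-/- libraries differed in depth and background, and these differences cannot be told apart from genotype. Total counts lay between 7839326 and 9363442 in WT and between 35596876 and 39192588 in ING4-/-. Counts per kb of exon on 1915 olfactory and vomeronasal receptor genes, which blood cells are not known to use, were 18.3 to 22.9 in WT and at most 0.080 in ING4-/-. Spread over all exons, such a background would make up 22.8% to 33.7% of WT counts and at most 0.0263% of ING4-/- counts. For each member, the background count was this density multiplied by its exonic length, and values with the background subtracted are given where they change a result. The subtracted counts were filtered and TMM-scaled anew, so a difference from the unsubtracted fit holds a change of scale as well as the subtraction. HSC and MPP marker genes (12 of 12 tested) summed to 2275 to 3497 CPM in WT and 3163 to 5119 CPM in ING4-/-, where CPM stands for TMM-scaled CPM, counts relative to library size. Ing4 itself was counted 247, 162 and 247 times in WT, and 0, 24 and 76 times in the ING4-/- libraries (log2 fold change -4.49 ± 1.56, SE, with a Benjamini-Hochberg adjusted p of 0.0373 in edgeR's quasi-likelihood test and 0.0783 with population as a block). This call held in 10 of 20 alternative fits and was lost without the WT LT-HSC, WT ST-HSC, WT MPP or ING4-/- ST-HSC library. Background made up 48.7%, 75.3% and 39.4% of the WT Ing4 counts, and with it subtracted the difference was -4.23 (log2, adjusted p = 0.0870, edgeR), no longer a call. The ING4-/- ST-HSC and MPP libraries still held Ing4 counts, and 34.9% of its exonic bases overlap the gene model Gm44597 on the same strand.

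To show the sequence in front of these genes, the 250 bases before each RefSeq transcription start (GRCm38.p6) were searched on both strands for the 10-base NF-κB consensus, the degenerate motif to which the dimers bind. Of the 10 members, 7 were in the RefSeq promoter table, and 5 of these (Nfkb2, Rel, Nfkbia, Nfkbie and Tnfaip3) held a match, whereas Rela and Nfkbib held none in this window. A match was present at 7.25% of 32851 starts, or in 8.23% of genes. The stretches below are the 130 bases before the start of 4 members that are read again in the results. They include an inhibitor with a known NF-κB response, 2 subunits, and Nfkbie. Nfkbie is the inhibitor called higher in the fit of all genes tested, a call that 17 alternative fits lost. Capitals mark the matches, and runs longer than 10 capitals hold overlapping matches.
Nfkbia, chr12:55492648-55492777, minus strand: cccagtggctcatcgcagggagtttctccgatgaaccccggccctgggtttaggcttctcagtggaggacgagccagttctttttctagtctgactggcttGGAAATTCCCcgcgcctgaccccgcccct
Nfkbie, chr17:45555570-45555699, plus strand: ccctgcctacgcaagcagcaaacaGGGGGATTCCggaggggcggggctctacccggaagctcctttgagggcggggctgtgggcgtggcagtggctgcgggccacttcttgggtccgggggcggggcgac
Rel, chr11:23770970-23771099, minus strand: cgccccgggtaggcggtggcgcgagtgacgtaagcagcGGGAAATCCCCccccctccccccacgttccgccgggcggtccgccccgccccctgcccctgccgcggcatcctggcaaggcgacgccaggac
Nfkb2, chr19:46304607-46304736, plus strand: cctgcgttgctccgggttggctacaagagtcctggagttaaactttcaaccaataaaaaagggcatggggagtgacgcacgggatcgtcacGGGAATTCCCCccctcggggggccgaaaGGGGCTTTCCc

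The match began 29 bases before the start in Nfkbia, 106 bases in Nfkbie and 92 bases in Rel, and at 39 and 11 bases in Nfkb2. Nfkb2 has 3 RefSeq starts, and the stretch above precedes start 1. Before starts 2 and 3, a match began at 236 and 225 bases. These matches describe the sequence and carry no measurement of binding.

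All 10 members had enough counts to be tested. Only 1 of them, Nfkbie, rose in ING4-/- cells by the rule of more than a 2-fold difference and an adjusted p below 0.05 in edgeR, and none fell. Among all 31001 genes tested in the same fit, 7.98% were called higher and 56.7% lower, so 1 of 10 higher was near the background and 0 of 10 lower was far under it. The share of lower calls moved with the genes that entered the fit: among 11632 genes with a mean CPM of at least 10, fitted on their own, 8.24% were called higher and 18.4% lower, with no member in either direction. With the background subtracted, 5.64% of 19672 genes were higher and 38.6% lower, again with no member called. The count depended on scaling, since 6 members (Nfkb1, Rela, Relb, Nfkbia, Nfkbib and Nfkbie) were called higher and none lower with upper-quartile normalization, where 14.7% of all genes were higher and 55.1% lower. With a trend on gene length removed, 2 members (Nfkbia and Nfkbie) were called higher and 4 (Nfkb1, Rel, Tnfaip3 and Ikbkb) lower, where 7.24% of all genes were higher and 64.3% lower. Log2 fold changes were positive for 6 members and negative for 4, with a median of 0.46 against -6.85 over all genes tested and 0.18 over the 11632 genes with a mean CPM of at least 10, whose middle 50% ran from -1.35 to 0.99.

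**Figure D1:**
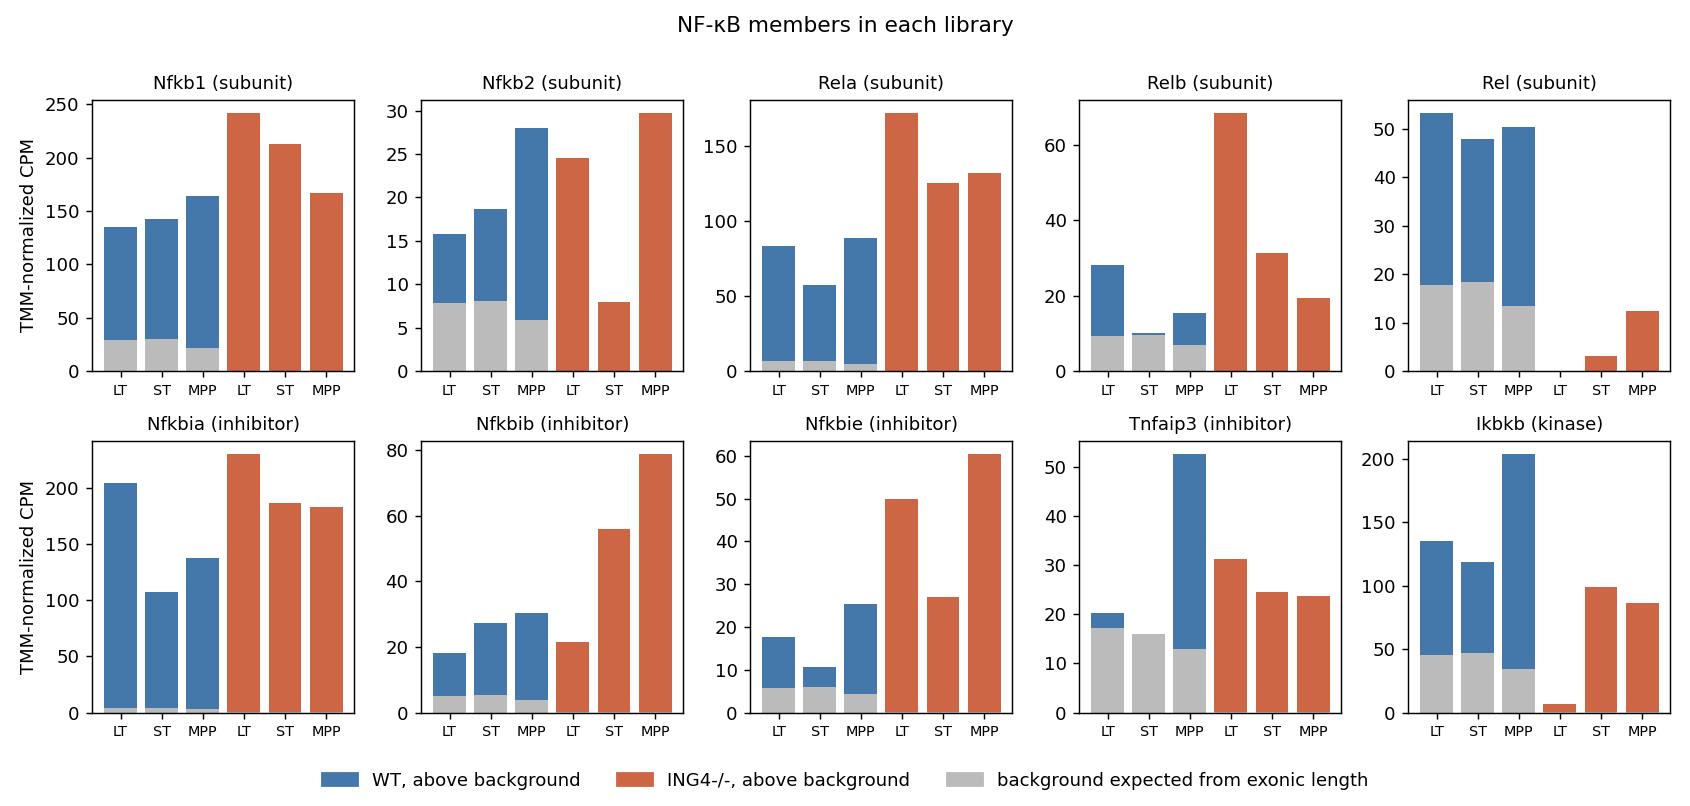
Bars give the TMM-normalized CPM of each member in the 6 libraries (LT, LT-HSC; ST, ST-HSC; MPP), WT in blue and ING4-/- in orange, 1 library per bar with no error, and grey marks the background computed from exonic length. Rel was 47.9 to 53.3 CPM in WT and at most 12.4 CPM in ING4-/-, and the grey part reached the top of the Tnfaip3 bar in WT ST-HSCs.

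The RELA subunit carries the transcription activation domain of the most common dimer. Rela (chr19:5637483-5648130) was counted 793, 532 and 905 times in WT and 5399, 3960 and 4482 times in ING4-/-, or 83.5, 57.3 and 88.8 CPM against 172.5, 125 and 132 CPM. Every ING4-/- library was above every WT library. The means were 76.5 ± 16.9 CPM (SD, n = 3) and 143 ± 25.5 CPM (SD, n = 3), a log2 fold change of 0.90 ± 0.261 (SE) with an adjusted p of 0.0173 by edgeR's quasi-likelihood test. It therefore passed the p threshold and missed the fold threshold. With the p threshold alone, 2 members (Rela and Nfkbie) and 9.6% of all genes tested were higher. With the background subtracted, which is 5.48% to 11.7% of the WT Rela counts, the libraries overlapped and the difference was 0.22 ± 0.260 (SE, adjusted p = 0.553, edgeR). On the new scale of that fit the means were 107 CPM in WT and 124 CPM in ING4-/-, so the WT mean was higher than before subtraction.

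The Nfkb1 product p105 is cut to p50, the usual partner of RELA. Nfkb1 (chr3:135584655-135691547) had 135, 142.9 and 164 CPM in WT and 242, 213 and 167 CPM in ING4-/-. The lowest ING4-/- value, in MPPs, lay just above the highest WT value, also in MPPs. The log2 fold change was 0.49 ± 0.208 (SE, adjusted p = 0.0730, edgeR), and it turned to -0.03 with the background subtracted and to -1.10, a call in the opposite direction (adjusted p = 0.00252), once a trend on gene length was removed.

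The alternative pathway works through RELB and p52. Relb (chr7:19606217-19629438) had 266, 94 and 158 counts in WT and 2146, 994 and 656 in ING4-/-, or 28.0, 10.1 and 15.5 CPM against 68.6, 31.4 and 19.3 CPM. Both genotypes had their highest value in LT-HSCs, and the ING4-/- MPP value lay within the WT range. The difference of 1.15 ± 0.630 (SE, log2) did not pass the test (adjusted p = 0.150, edgeR), and background made up 94.8% of the WT ST-HSC count. Nfkb2 (chr19:46304737-46312090) had 15.8, 18.6 and 28.0 CPM in WT and 24.5, 8.0 and 29.8 CPM in ING4-/-. The ING4-/- ST-HSC library held the lowest value of the 6 and the other ING4-/- libraries 2 of the 3 highest, and the fold change was -0.0025 ± 0.605 (SE, log2, adjusted p = 0.997, edgeR), with a sign that changed with the scaling.

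REL, or c-Rel, is the subunit best known from lymphocytes. Rel (chr11:23736847-23770970) was counted 506, 445 and 513 times in WT, and 3, 101 and 420 times in the ING4-/- libraries, which are over 3 times as deep. In CPM these were 53.3, 47.9 and 50.3 against 0.096, 3.19 and 12.4. All 3 WT values lay close together, while the ING4-/- values were lower and spread from LT-HSCs to MPPs. The means were 50.5 ± 2.69 CPM and 5.22 ± 6.39 CPM (SD, n = 3 each). The log2 fold change of -3.27 ± 1.33 (SE) did not pass the test (adjusted p = 0.0650, edgeR), but without the ING4-/- LT-HSC library it was -2.67 with an adjusted p of 0.00807, and DESeq2 gave -3.67 with an adjusted p of 0.00730. With the background subtracted and without that library it was -2.94 (adjusted p = 0.0194, edgeR). Background was 26.6% to 38.5% of the WT Rel counts, so the counts in WT stood 2.60 to 3.76 times above it.

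Genes counted in the other ING4-/- libraries were more often near 0 in the ING4-/- LT-HSC library. Of 8167 genes with at least 300 counts in both other ING4-/- libraries, 363 (4.44%) had at most 10 there, whereas the same share was 1.25% for ING4-/- ST-HSCs, 0.589% for ING4-/- MPPs and at most 0.0170% in WT, where the background of 18.3 to 22.9 counts per kb bears on such a share, so that WT is no contrast for it. Among 1518 genes with 300 to 600 counts in ING4-/- MPPs, as Rel had, 335 (22.1%) had at most 3 counts in ING4-/- LT-HSCs. The part of such low counts in the Rel value of that library was not tested. In bulk libraries, fewer cells that express a gene and less RNA per cell cannot be told apart.

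Within each library, the share of subunit counts does not depend on scaling. Rel took 16.9% (95% exact binomial interval 15.6% to 18.3%), 17.3% (15.9% to 18.8%) and 14.5% (13.4% to 15.7%) of the subunit counts in WT. In ING4-/- it took 0.0189% (0.00389% to 0.0551%), 0.838% (0.683% to 1.02%) and 3.43% (3.12% to 3.77%), so the intervals of the genotypes did not meet in any population. These intervals cover counting error only. Per kb of exon and net of background, Rela was the largest subunit in all 6 libraries, with 52.8% to 57.7% of the subunit signal in WT and 58.4% to 62.2% in ING4-/-, followed by Nfkb1 with 17.9% to 26.6% and 17.7% to 23.7%. Rel stood at 8.74% to 11.2% in WT and at most 2.12% in ING4-/-. The ratio of Rel to Rela was 0.168, 0.212 and 0.160 in WT and 0.000162, 0.00923 and 0.0341 in ING4-/- (exact permutation test, two-sided, p = 0.1, the smallest that 3 against 3 libraries allow, 0.2 after adjustment over 4 ratios).

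**Figure D2:**
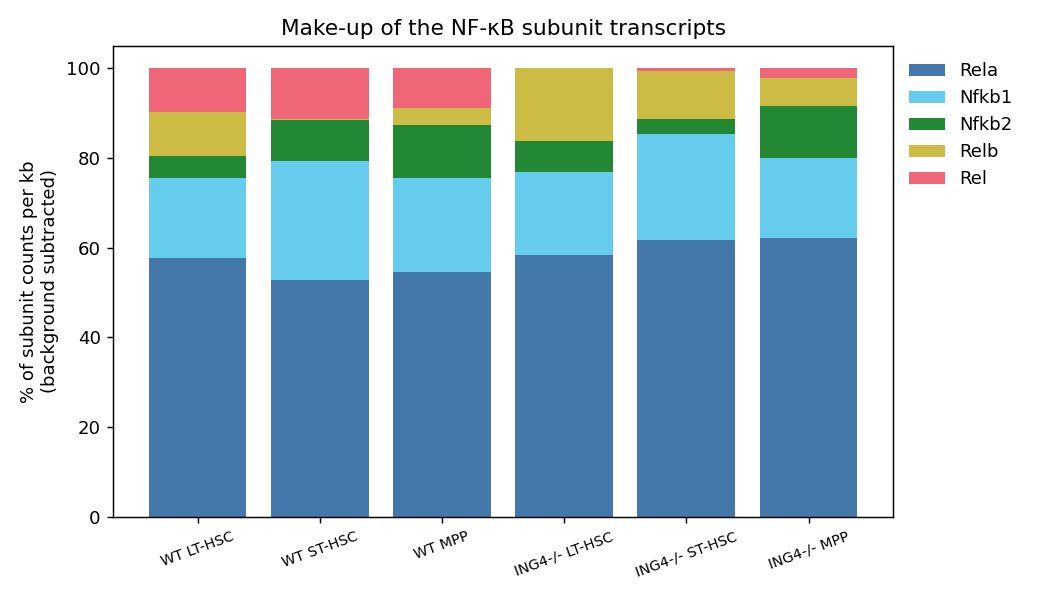
Stacked bars give the share of each subunit in the subunit counts per kb of exon after background subtraction, in percent, 1 library per bar. Rela filled over 50% of every bar, and Rel, at the top, shrank from at least 8.74% in WT to at most 2.12% in ING4-/-.

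IκBα, from Nfkbia, is resynthesized after NF-κB activation and ends it. Nfkbia (chr12:55489411-55492647) had 204, 107 and 138 CPM in WT and 230, 187 and 183 CPM in ING4-/-, with the WT LT-HSC value inside the ING4-/- range. The fold change of 0.42 ± 0.275 (SE, log2, adjusted p = 0.225, edgeR) turned to -0.36 (adjusted p = 0.344) with the background subtracted and was 1.10, a call, with the trend on gene length removed. Background was 1.84% to 3.65% of the WT Nfkbia counts, while the WT mean went from 150 to 223 CPM on the new scale of the subtracted fit. Nfkbia, one of the genes whose promoter is printed above, had the highest level per kb of exon of the members in every library, 67.7 to 129 CPM per kb in WT and 116 to 146 CPM per kb in ING4-/-, and Rela came next at 21.1 to 32.7 and 46.1 to 63.5 CPM per kb. The ratio of Nfkbia to Rela, per kb and net of background, was 4.48, 3.50 and 2.77 in WT and 2.30, 2.57 and 2.38 in ING4-/-. All 3 ING4-/- ratios were below the WT ratios (exact permutation test, two-sided, p = 0.1, again the smallest possible, 0.2 adjusted over 4 ratios).

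IκBε, from Nfkbie, restrains RELA and c-Rel dimers. Nfkbie (chr17:45555716-45563169) was counted 167, 99 and 258 times in WT and 1561, 854 and 2048 times in ING4-/-, or 17.6, 10.7 and 25.3 CPM against 49.9, 27.0 and 60.4 CPM. In both genotypes ST-HSCs were lowest and MPPs highest, and the genotypes did not overlap, with the ING4-/- ST-HSC value next to the WT MPP value. Background was 17.2% to 56.1% of the WT counts. The means of 17.9 ± 7.33 CPM and 45.8 ± 17.1 CPM (SD, n = 3 each) gave a log2 fold change of 1.36 ± 0.501 (SE, adjusted p = 0.0465, edgeR). That call was lost with population as a block (1.37, adjusted p = 0.0544), with the background subtracted (1.10, adjusted p = 0.228), in DESeq2 (1.03, adjusted p = 0.0810), and without the ING4-/- LT-HSC library (1.32, adjusted p = 0.0617) or any other single library except that of ING4-/- ST-HSCs. The log2 fold change stayed between 0.87 and 1.94 in every alternative run. The ratio of Nfkbie to Rela was 0.172, 0.104 and 0.280 in WT and 0.324, 0.242 and 0.512 in ING4-/-, with overlap (exact permutation test, two-sided, p = 0.2, 0.267 adjusted over 4 ratios). Within each population the ING4-/- ratio was the higher, and the permutation test did not pair libraries by population.

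IκBβ, from Nfkbib, is the IκB that is not rapidly resynthesized. Nfkbib (chr7:28758251-28767512) had 18.0, 27.2 and 30.2 CPM in WT and 21.4, 55.9 and 78.8 CPM in ING4-/-. Both genotypes were lowest in LT-HSCs and highest in MPPs, and the ING4-/- LT-HSC value lay within the WT range. The difference of 1.05 ± 0.528 (SE, log2) did not pass the test (adjusted p = 0.122, edgeR), and without the ING4-/- LT-HSC library it was 1.45 with an adjusted p of 0.00993, or 0.90 with an adjusted p of 0.140 when the background was also subtracted. Of its exonic bases, 16.4% overlap Ccer2 or Sirt2 on the opposite strand, and without a stated strand setting those reads cannot be assigned with certainty. The ratio of Nfkbib to Rela was 0.209, 0.542 and 0.393 in WT and 0.155, 0.559 and 0.747 in ING4-/- (exact permutation test, two-sided, p = 0.7).

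A20, from Tnfaip3, is a ubiquitin-editing enzyme that stops signaling upstream of IκB kinase. Tnfaip3 (chr10:19000910-19015657) had 193, 149 and 536 counts in WT and 977, 776 and 805 in ING4-/-, or 20.3, 16.0 and 52.6 CPM against 31.2, 24.5 and 23.7 CPM. The WT MPP value was the highest of all, and the ING4-/- values lay between it and the other WT values. Background alone would give 84.7% of the WT LT-HSC count and 111% of the WT ST-HSC count, so expression of Tnfaip3 was not detectable above it in WT ST-HSCs. The fold change of -0.16 ± 0.544 (SE, log2, adjusted p = 0.816, edgeR) became 0.17 with the background subtracted and 0.04 with population as a block, and was -1.82, a call (adjusted p = 0.0215, edgeR), with the trend on gene length removed.

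Ikbkb (chr8:22659212-22706589) had 135.5, 119 and 204 CPM in WT and 7.03, 99.0 and 86.6 CPM in ING4-/-, with 220 counts in the ING4-/- LT-HSC library against 3130 and 2937 in the other ING4-/- libraries. All 3 ING4-/- values were below all WT values, with ST-HSCs of both genotypes close together. The difference of -1.25 ± 0.824 (SE, log2) did not pass the test (adjusted p = 0.225, edgeR), and without the ING4-/- LT-HSC library it was -0.69 (adjusted p = 0.0702). With the trend on gene length removed it was -2.63, a call (adjusted p = 0.0272, edgeR). Ikbkb also has the longest exonic sequence of the members, 19078 bases.

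In all, the ING4-/- libraries lay wholly above the WT libraries for 3 members (Nfkb1, Rela and Nfkbie), as they did for 12.0% of all genes tested and 28.8% of those with a mean CPM of at least 10. They lay wholly below for 2 members (Rel and Ikbkb), as for 62.9% and 28.2% of those genes. With the background subtracted, no member remained wholly above and both Rel and Ikbkb remained below, against 13.8% of the 19672 genes above and 45.9% below.

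**Figure D3:**
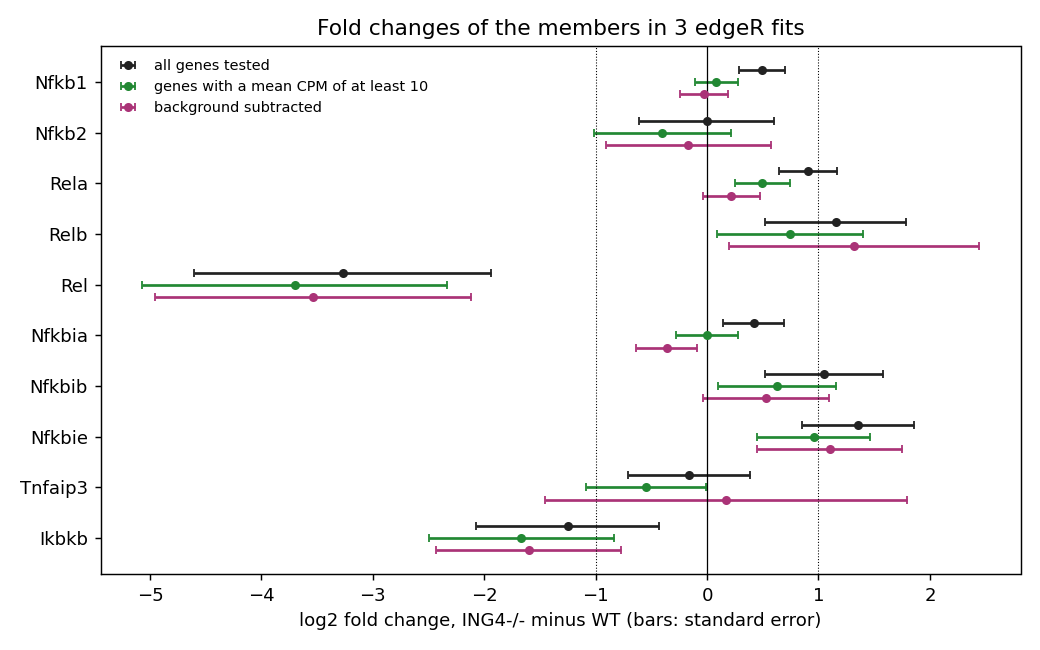
Points give the log2 fold change of each member, ING4-/- minus WT, with bars of 1 SE, in 3 edgeR fits: all genes tested (black), genes with a mean CPM of at least 10 (green) and background subtracted (purple), and dotted lines mark the fold threshold. Rela, Relb, Nfkbib and Nfkbie lay right of 0 and Nfkb2, Rel and Ikbkb left of 0 in all 3 fits, whereas Nfkb1, Nfkbia and Tnfaip3 changed sign between fits.

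To follow the members from stem cells to progenitors, MPPs were compared with LT-HSCs in a fit with genotype as a term and 2 libraries per population. No member was called in edgeR (0.0% of 36170 genes tested, although 564 of those genes and 0 members had an unadjusted p under 0.05) or in DESeq2 (1.47% of genes). The largest differences among the members were in Rel (2.53 ± 1.93, SE, log2), which was higher in MPPs only in ING4-/-, Ikbkb (1.67 ± 0.978), Nfkbib (1.30 ± 0.561) and Relb (-1.29 ± 0.701). Ikbkb and Nfkbib were higher and Relb lower in MPPs than in LT-HSCs in both genotypes, without passing the test.

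The surrounding pathway was read from lists of its other genes. Over all genes tested, 7.98% rose and 56.7% fell by the same rule. With the background subtracted these shares were 5.64% and 38.6%, and at a mean CPM of at least 10 they were 8.24% and 18.4%. Of 27 kinases and adaptors, 2 rose and 1 fell, with a median log2 fold change of 0.07 against -6.85 over all genes tested. Among genes with a mean CPM of at least 10, none of 25 rose and 2 fell, with a median of -0.31 against -0.23 over all genes of that fit, and with the background subtracted none of 26 rose and 1 fell (median -0.06 against -0.92). Ikbkg, the regulatory NEMO subunit of IκB kinase, rose by 1.20 ± 0.396 (SE, log2, adjusted p = 0.0302, edgeR; 0.0751 with population as a block), and Tradd, an adaptor of the TNF receptor, by 1.51 ± 0.414 (adjusted p = 0.0136). Traf1, itself an NF-κB target, fell by 1.65 on the log2 scale (SE 0.482, adjusted p = 0.0185). The Ikbkg call was lost without the ING4-/- LT-HSC library or any 1 WT library, and the Traf1 call without the WT LT-HSC or WT MPP library, while Tradd kept its call without any 1 library. With the background subtracted, none of these 3 passed the test, at 0.88 for Ikbkg, 0.91 for Tradd and -1.53 for Traf1 on the log2 scale (adjusted p = 0.145, 0.159 and 0.102, edgeR).

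Of 14 receptors tested (15 listed), 2 rose and 3 fell (median -0.31). With the background subtracted none of 11 rose and 3 fell (median 0.54), and at a mean CPM of at least 10, 1 of 10 rose and 1 fell (median -0.49). In the same order of fits, 7.98%, 5.64% and 8.24% of all genes were higher and 56.7%, 38.6% and 18.4% lower. Their medians were -6.85, -0.92 and -0.23. The TNF receptor gene Tnfrsf1a had 420, 511 and 672 counts in WT and 5850, 4085 and 4578 in ING4-/-, a log2 fold change of 1.45 ± 0.265 (SE, adjusted p = 0.00194, edgeR), which was 0.80 (adjusted p = 0.0527) with the background subtracted. Ltbr, the lymphotoxin receptor that feeds the alternative pathway, rose by 1.19 ± 0.364 (adjusted p = 0.0223, edgeR; 0.262 with the background subtracted), and lost its call without the WT ST-HSC, WT MPP or ING4-/- MPP library. Tlr1 and Cd40 had at most 1 count in every ING4-/- library. In WT, Cd40 had 57, 33 and 103 counts where background alone would give 77.0, 78.1 and 62.2, and Tlr1 had 109, 91 and 76 counts against a background of 75.7, 76.7 and 61.1. The remaining receptor, Tnfrsf11a (RANK), named after its values were seen, had 235, 149 and 125 counts in WT against a background of 135.4, 137 and 109, and 0, 4 and 0 counts in ING4-/-.

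Of 18 other inhibitors, 1 rose and none fell (median 0.02), against none and 1 of 16 with the background subtracted (median 0.0035) and none in either direction of 15 at a mean CPM of at least 10 (median -0.46). The 1 that rose was Commd1, which promotes the destruction of RELA on chromatin, by 1.23 ± 0.207 (SE, log2, adjusted p = 0.00132, edgeR), or 0.79 (adjusted p = 0.0294) with the background subtracted. Of 13 nuclear cofactors, 3 rose and 2 fell (median -0.60), against 1 and 2 of 12 both with the background subtracted (median -0.60) and at a mean CPM of at least 10 (median -0.62). In the same order of fits, 7.98%, 5.64% and 8.24% of all genes were higher and 56.7%, 38.6% and 18.4% lower. Their medians were -6.85, -0.92 and -0.23. Rps3, a ribosomal protein that also binds RELA, rose by 2.47 ± 0.108 (adjusted p = 0.00028, edgeR), with the caveat that ribosomal protein genes have near-identical pseudogenes that can share reads. Cdk9, the elongation kinase recruited by RELA, rose by 1.33 ± 0.291 (adjusted p = 0.00477, edgeR; 0.0703 with the background subtracted). The deacetylase gene Hdac1, also named after its values were seen, rose by 1.09 ± 0.188 (adjusted p = 0.00152, edgeR), or 0.34 (adjusted p = 0.152) after subtraction, and lost its call without the WT LT-HSC or WT ST-HSC library. Ep300, an acetyltransferase that acts on RELA, was counted 687, 737 and 942 times in WT and 244, 54 and 857 times in ING4-/- and fell by 2.81 on the log2 scale (SE 0.885, adjusted p = 0.0251, edgeR; 0.0354 with the background subtracted), a call that was lost without the ING4-/- LT-HSC, WT ST-HSC or WT MPP library. The other to fall was Ing4.

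Of 42 target genes tested (46 listed), 2 rose and 6 fell (median 0.05), against none and 2 of 34 with the background subtracted (median -0.46) and 1 and 2 of 29 at a mean CPM of at least 10 (median -0.16). In the same order of fits, 7.98%, 5.64% and 8.24% of all genes were higher and 56.7%, 38.6% and 18.4% lower. Their medians were -6.85, -0.92 and -0.23. Of the 6 target genes that fell, 5 had at most 3 counts in every ING4-/- library, and the other was Traf1, which stood in 2 lists. The anti-apoptotic Bcl2l1 rose by 1.02 ± 0.335 (SE, log2, adjusted p = 0.0299, edgeR; 0.345 with the background subtracted and 0.0601 with population as a block), and lost its call without the WT ST-HSC, WT MPP, ING4-/- ST-HSC or ING4-/- MPP library. Fth1, the ferritin heavy chain, rose by 1.52 ± 0.196 (adjusted p = 0.000657, edgeR; 0.72 with an adjusted p of 0.0111 after subtraction). Il6 had 223, 166 and 144 counts in WT, 54.9, 55.7 and 44.4 of them as background, and 0, 1 and 0 counts in ING4-/-. The chemokine Cxcl2 had 63, 7 and 25 counts in WT, where background would give 46.8, 47.4 and 37.8, and 0 in every ING4-/- library. With the trend on gene length removed, the signs of Ikbkg, Commd1, Cdk9 and Bcl2l1 turned.

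**Figure D4:**
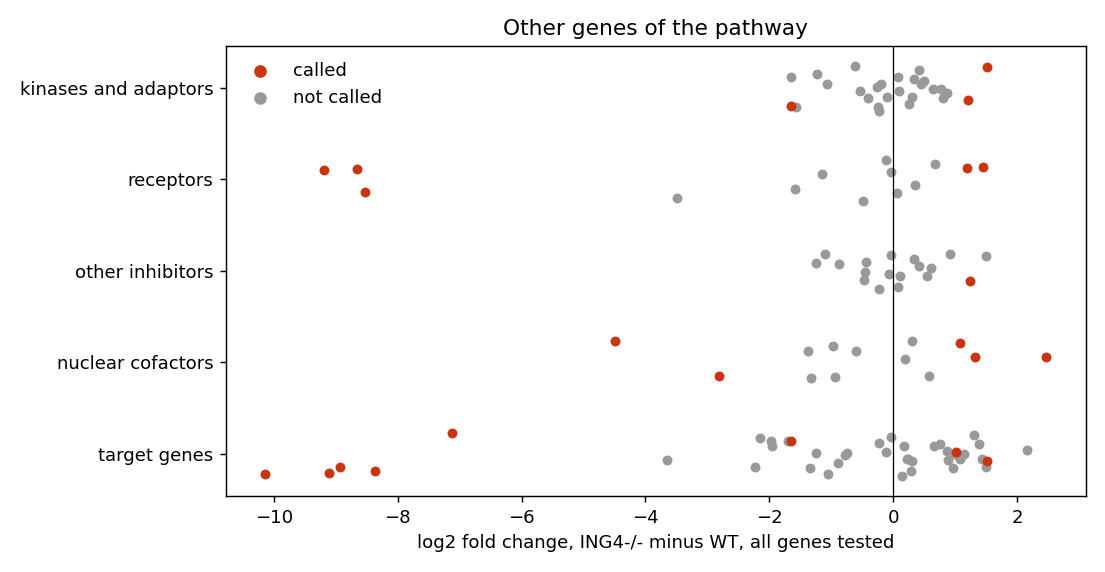
Each point is 1 gene of the 5 pathway lists, placed by its log2 fold change, ING4-/- minus WT, in the fit of all genes tested, red where called and grey where not, with vertical jitter for display only. The red points at the far left belong to genes with few or no ING4-/- counts, whose fitted values depend on the prior count.

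Genes of other cell types and of stress were summed in the same libraries, with the background left in. Erythroid markers (7 found of 8) summed to 18.4 to 23.4 CPM in WT and 82.9 to 157 CPM in ING4-/-, with Alas2 at 0 in every ING4-/- library, and 13 granulocyte and monocyte markers to 391 to 575 and 945 to 1085 CPM, with Csf1r at 0. The 7 B cell markers summed to 87.9 to 99.3 CPM in WT and 92.0 to 132 CPM in ING4-/-, with overlap, and Cd79a, Ms4a1, Igkc and Ebf1 were at 0 in ING4-/-. The 9 T and NK cell markers summed to 82.6 to 161 and 61.5 to 308 CPM, also with overlap, and Cd3e, Cd3g, Cd8a and Trac were at 0. WT counts of the markers at 0 were not set against background, which would make up 22.8% to 33.7% of WT counts. Called higher and lower were 4 and 1 of 7 erythroid and 2 and 1 of 12 granulocyte and monocyte markers tested. For B cell markers these were 1 and 3 of 6, and for T and NK cell markers 0 and 4 of 7. Over all genes tested, 7.98% were higher and 56.7% lower. The 13 dissociation stress genes, which include immediate early genes induced beside Nfkbia during cell preparation, were highest in WT MPPs (7773 CPM) and ING4-/- LT-HSCs (7702 CPM) and lowest in ING4-/- ST-HSCs (3421 CPM). The part of these genes in the members' values was not tested.

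Across the 6 libraries, the protein-coding genes whose log2 CPM followed Rela most closely were Alas1 (Pearson's r = 0.999), Nadk (0.995) and Aldoa (0.995), and 169 of 10920 genes compared had an r over 0.95. For Nfkbia they were Rhof (0.984), Izumo4 (0.974) and Clcn4 (0.969), and 11 genes had an r over 0.95. These libraries share the difference in depth and background between genotypes, and the values are a description of 6 points.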

How the data were processed

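Bulk RNA-seq of LT-HSCs, ST-HSCs and MPPs was analysed as 3 WT and 3 ING4-/- libraries, grouped by the genotype in the labels. The authors deposited raw read counts per gene (49315 genes), not normalized. The genome build mm10 is named in the submitters' processing notes, while the aligner, the counting program and the strand setting are not given in the sources used here. Symbols came from GENCODE M21 of GRCm38, in which 49056 identifiers were found. Exonic lengths and positions came from the deposited counts, where 44858 genes had the same start and end as in GENCODE M21.

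Genotypes were compared in edgeR 4.0.16 (R 4.3.3) with TMM scaling, filterByExpr and the quasi-likelihood F test, Benjamini-Hochberg adjusted over all genes tested, and genes were called above a 2-fold difference (log2 over 1 in size) when the adjusted p was below 0.05. DESeq2 1.42.0 was an alternative. Each standard error was derived from F, as the size of the log2 fold change over its square root. Log2 ratios within a population used a prior count of 2. Libraries of a population deviated together from the genotype means (r = 0.143, 0.110 and 0.121 over 9673 genes), so population was used as a block in an alternative. A count of 0 allows up to 3 counts, or 0.0765 to 0.383 CPM without TMM scaling. The fit of genes with a mean CPM of at least 10 also chose its genes by CPM without TMM scaling. Since molecular identifiers were not used, counting error is all that these floors and the intervals cover. The fits were also run on simulated data drawn from a shared mean profile. That simulation held no difference in background between genotypes, so it does not bear on how such a difference affects the calls.

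The members, the pathway and marker lists and the tests were chosen with earlier results of these data known. All members and Ing4 are described, and of each list the 2 highest and 2 lowest called genes are named; for Rela and Nfkbia, the 3 protein-coding genes of closest correlation with a mean CPM of at least 10. Of the alternatives, background subtraction without the ING4-/- LT-HSC library was chosen after seeing the data. Promoters are RefSeq sequences of GRCm38.p6. Those of Nfkb1, Relb and Ikbkb are not shown. The result for 1 gene of the marker lists was left out and is not reported here.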

Additional observations from a re-analysis of the deposited data

Results flagged for a closer look

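For 2 members, the populations differed in the direction of the genotype difference. The log2 ratio of ING4-/- to WT for Nfkb2 was -1.21 in ST-HSCs, against 0.63 in LT-HSCs and 0.090 in MPPs. For Tnfaip3 it was -1.14 in MPPs, against 0.62 in LT-HSCs and 0.61 in ST-HSCs, and the WT values of LT-HSCs and ST-HSCs were within or near background. Each population had 1 library per genotype, so these differences between populations were not tested.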

How the results depend on the processing

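The count of members called higher, 1 in the fit of all genes, was 0 with DESeq2 size factors, in DESeq2, with at least 10 counts in every library, with a mean CPM of at least 10, with protein-coding genes only, with the background subtracted (also without ING4-/- LT-HSCs), with counts thinned to equal depth, with population as a replicate block, and without ST-HSCs or MPPs, fits in which 4.33% to 8.30% of all genes were higher. It was 2 with the length trend removed (7.24% of all genes) or with no fold threshold (9.6%), 6 with upper-quartile normalization (14.7%), and 0 to 2 without single libraries (5.24% to 8.62%). The count called lower, 0, was 1 (Rel) with DESeq2 size factors, in DESeq2, without LT-HSCs, without MPPs, and with the background subtracted and ING4-/- LT-HSCs left out (35.7% to 61.4% of all genes), 4 (Nfkb1, Rel, Tnfaip3 and Ikbkb) with the length trend removed (64.3%), and 0 to 1 without single libraries (56.0% to 61.7%). The count for MPPs against LT-HSCs was 0 in every alternative run. The block ended the calls of Nfkbie, Ing4, Ikbkg and Bcl2l1 and changed no other call of a gene named here.

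The scaling moved the median log2 fold change of all genes from -6.85 to -7.17 with DESeq2 size factors and to -6.35 with the upper quartile. Signs turned as follows on the log2 scale. Nfkb1 fell to -0.0056 with at least 10 counts in every library, -0.031 with the background subtracted, -0.17 when ING4-/- LT-HSCs were also left out, and -1.10 with the length trend removed. Nfkb2 became 0.58 with the upper quartile, 0.082 with no filter and 0.32 without ST-HSCs, and ran from -0.33 to 0.41 without single libraries. Nfkbia became -0.10 with at least 10 counts in every library, -1.63e-05 with a mean CPM of at least 10, -0.36 with the background subtracted and -0.49 when ING4-/- LT-HSCs were also left out. Tnfaip3 became 0.44 with the upper quartile, 0.17 with the background subtracted, 0.016 when ING4-/- LT-HSCs were also left out, 0.043 with the replicate block and 0.44 without MPPs, and ran from -0.47 to 0.42 without single libraries. With the length trend removed, Ikbkg became -0.41, Commd1 -0.36, Cdk9 -0.024 and Bcl2l1 -0.32. The causes were not tested. Over all members, 154 values kept their direction and call and 19 turned, among them Nfkb1 with the length trend removed, which also became a call. Of the values that kept their direction, 19 became calls and 17 lost a call.

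Rel and Ing4 had 3 and 0 counts in ING4-/- LT-HSCs, although that library held 35596876 counts. Background made up a large part of at least 1 WT count of Tnfaip3, Relb, Ing4, Nfkbie and Nfkb2, which limits their WT values.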
